A study of Mus musculus with 32 samples.

Results

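Ankrd37 and 9 further genes of the hypoxia-inducible factor (HIF) pathway were followed in whole lungs of newborn mice. The genes are the oxygen sensors Egln1 and Egln3, the HIF subunits Hif1a and Epas1, and the HIF targets Ankrd37, Slc2a1, Pdk1, Bnip3, Adm and Ndrg1. Probes were taken by the gene symbol in the array files. The 10 genes had 16 of the 55681 mouse probes of the array, which names 22594 genes, and the brightest probe of each gene is described. Ankrd37 was chosen by its measured level, which was higher with antimiR-34a in 85% O2 at P5, so its values in that comparison, and in each comparison that shares those arrays, are a description without a test. The other 9 genes were chosen as known HIF pathway members with earlier results of these data known.

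C57Bl/6J pups of both sexes were kept in room air (21% O2) or in 85% O2 from P1 (the first day of life), which arrests the formation of alveoli and serves as a model of bronchopulmonary dysplasia. All pups were injected intraperitoneally with a locked nucleic acid oligonucleotide in the first days of life, either a scrambled antimiR or antimiR-34a, which blocks the microRNA miR-34a. RNA of perfused whole lungs, taken at P5 or P14, was hybridised to one-colour arrays, with 4 arrays in each of the 8 groups and 32 in all. No uninjected group is among these arrays. The arrays lay on 4 slides of 8, each with 1 age and 1 oxygen level, so slide and oxygen level cannot be told apart. On every slide the scrambled antimiR was on array row 1 and antimiR-34a on row 2, so treatment and row cannot be told apart either.

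HIF is a transcription factor made of an oxygen-labile alpha subunit, such as the products of Hif1a and Epas1, and a stable beta subunit. In the presence of oxygen, prolyl hydroxylases such as the products of Egln1 and Egln3 mark the alpha subunit for degradation through the von Hippel-Lindau protein. When oxygen is low the alpha subunit persists and binds a short DNA motif near genes of glycolysis, vessel growth and mitochondrial turnover, and Egln3, Ankrd37 and several others of the 10 genes are textbook targets. The activity of HIF is set largely at the protein level, which the arrays do not measure.

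The sequences that bear on this design are the microRNA that was blocked and the HIF motif before the genes. Mature miR-34a is shown 5′ to 3′ with its seed, bases 2 to 8, in capitals, from RefSeq (GRCm38.p6, chr4:150068473-150068494, plus strand).
mmu-miR-34a-5p: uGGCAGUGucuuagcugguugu
The complement of the seed, CACTGCC, was in 0 of the 16 probes of the 10 genes and in 250 of all 55681 mouse probes (0.449%). The probes cover only a small stretch of each transcript, so this says nothing about sites elsewhere in them.

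RefSeq promoter windows of 300 bases (250 before and 50 after a transcript start) were at hand for 8 of the 10 genes, those other than Ndrg1 and Epas1. The core of the HIF motif was searched as ACGTG and as GCGTG on both strands, and a CACGTG palindrome counts on each strand. ACGTG was in the window of 6 of these genes (Ankrd37, Bnip3, Egln1, Egln3, Slc2a1 and Hif1a), and the window of Adm and the first of the 2 windows of Pdk1 held GCGTG alone. The second Pdk1 window held neither. Of all 32851 windows, 19.6% held ACGTG, 32.4% held GCGTG and 43.8% held either. The ACGTG matches of Ankrd37 and 1 match each of Slc2a1, Bnip3 and Egln3, the genes whose levels are compared most below, are shown on the gene's strand with the match in capitals and up to 10 bases on each side.
Ankrd37, 241 bases before the start: cccagcagtACGTGcctagctcgg
Ankrd37, 6 bases before the start: gtgtttgggtACGTGaggccgcagc
Slc2a1, 36 bases before the start: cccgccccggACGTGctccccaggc
Bnip3, 107 bases before the start: cacgcgccgcACGTGccacacgctc
Egln3, 229 bases before the start: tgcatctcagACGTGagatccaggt
On GRCm38.p6 the Ankrd37 matches lie at chr8:46000077-46000100 and chr8:45999842-45999866 on the minus strand. A match is a description of the sequence and not a measured binding site.

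Levels are log2 processed signals from which each array's own 75th percentile was subtracted, so a level of 0 is the brightness of the array's upper quartile and a difference of 1 is a doubling. All 16 probes were well above background on all 32 arrays. Levels of different genes are not set against each other, since each probe has its own brightness. In whole lung, fewer cells of a type and less RNA per cell cannot be told apart. The labels do not say that the 4 arrays of a group came from separate mice, so p-values measure the spread between these samples, which may be technical.

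Marker genes of lung and muscle were read on every array. The mean log2 level of 8 type II pneumocyte markers lay between 5.21 and 5.55 on every array, and that of 10 endothelial markers between 3.68 and 4.18. Skeletal muscle markers stood at 1.92 in replicate 4 of the P5 scrambled antimiR mice in 21% O2 and between -3.48 and -1.23 in the other 31 arrays. Heart muscle markers ranged from -0.13 to 4.56, and their medians were lower in 85% O2 than in 21% O2 at both ages. Replicate 4 of the P14 antimiR-34a group in 85% O2 stood apart from its group. Its type I pneumocyte markers were at 3.55, against 4.03 to 4.22 in the rest. Its red blood cell markers were at 2.23 (rest -0.15 to 1.17) and its heart muscle markers at 2.82 (rest 0.08 to 1.29). The part of this array's markers in the levels of the 10 genes was not tested.

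Ankrd37, which encodes a small ankyrin repeat protein, was read by 1 probe (mm9, chr8:47082404-47082463, minus strand). At P5 in 85% O2 its levels were -0.53, -0.56, -0.66 and 0.14 with scrambled antimiR. With antimiR-34a they were 1.30, 1.84, 1.84 and 1.56. The highest scrambled antimiR array, replicate 4, was below the lowest antimiR-34a array, and the mean difference was 2.04 (4.10-fold, SE 0.18). This is the difference Ankrd37 was chosen for. Without replicate 4 of the scrambled group it was 2.22.

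In 21% O2 at P5 the Ankrd37 levels were -0.27, 0.13, -0.26 and 0.01 with scrambled antimiR and -0.24, -0.29, -0.01 and -0.59 with antimiR-34a. These groups overlapped, and the difference of -0.18 (SE 0.18) was not called by limma (adjusted p = 0.613). The P5 arrays in 85% O2 with scrambled antimiR had a mean level of -0.40 ± 0.36 (SD, n = 4) beside -0.10 ± 0.20 in 21% O2, and their ranges overlapped. With antimiR-34a the mean was 1.63 ± 0.26 in 85% O2 and -0.28 ± 0.24 in 21% O2. The antimiR-34a difference was 2.22 larger in 85% O2 than in 21% O2 (SE 0.26), again without a test.

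At P14 Ankrd37 was high in 85% O2 with either oligonucleotide. Its levels with scrambled antimiR were 1.42, 1.67, 1.55 and 1.66 in 85% O2 and 0.06, -0.17, 0.03 and -0.16 in 21% O2. Every array in 85% O2 was above every array in 21% O2, and Ankrd37 rose by 1.63 (3.1-fold, SE 0.09, limma adjusted p = 9.57e-09). With antimiR-34a the levels were 1.88, 1.80, 1.88 and 1.92 in 85% O2 and -0.33, -0.21, 0.07 and -0.23 in 21% O2. That rise was 2.04 (4.12-fold, SE 0.09, limma adjusted p = 1.13e-09). These P14 arrays took no part in the choice of Ankrd37.

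AntimiR-34a had a small positive difference for Ankrd37 in 85% O2 at P14. The antimiR-34a arrays were all above the scrambled antimiR arrays, with a difference of 0.29 (1.23-fold, SE 0.09), but it was not called (limma unadjusted p = 0.00605, adjusted p = 0.109). Of all 38452 tested probes, 6356 had a limma unadjusted p under 0.05 in this comparison. The share of all probes without overlap was not counted here. In 21% O2 at P14 the difference was -0.12 (SE 0.09, limma adjusted p = 0.680) and the groups overlapped. The difference between the oxygen levels was 0.41 (SE 0.13, limma adjusted p = 0.201).

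**Figure D1:**
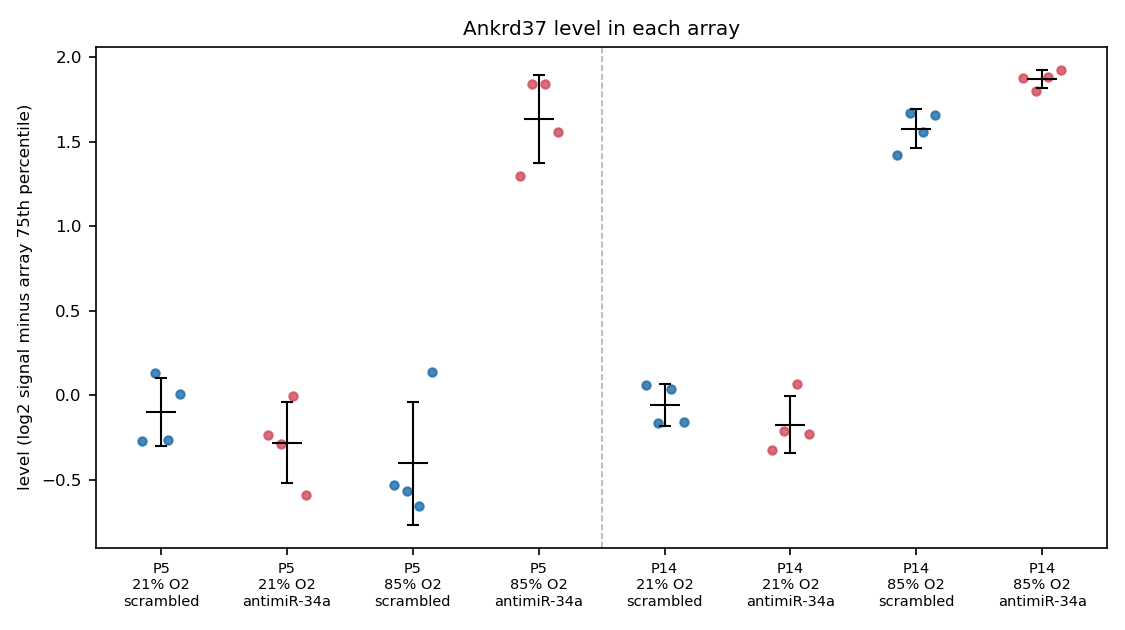
Level of Ankrd37 (log2 signal minus the array's 75th percentile) in each of the 32 arrays by group, blue for scrambled antimiR and red for antimiR-34a, with the mean and SD of 4 arrays as a bar. The P5 antimiR-34a arrays in 85% O2 (1.30 to 1.84) overlap the P14 arrays in 85% O2 (1.42 to 1.92), and the other 5 groups lie between -0.66 and 0.14.

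Ordered by their means, the 8 groups fell into a low set of 5 and a high set of 3. The low set held both P5 groups and both P14 groups in 21% O2 and the P5 scrambled antimiR group in 85% O2, and every neighbour in that order overlapped the next. The high set ran from 1.57 ± 0.12 (P14, 85% O2, scrambled antimiR) through 1.63 ± 0.26 (P5, 85% O2, antimiR-34a) to 1.87 ± 0.05 (P14, 85% O2, antimiR-34a), and neighbours there overlapped too. Probes above background numbered 33606 to 36473 on arrays of the high set and 35935 to 40774 on those of the low set. The part of this in the order was not tested. Between ages the signed oxygen difference with scrambled antimiR was 1.94 higher at P14 than at P5 (SE 0.21), given without a test because the P5 arrays were used to choose the gene.

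None of the other 9 genes was called for antimiR-34a in 85% O2 at P5, the comparison in which Ankrd37 differed. By limma 0 of 9 were called at an adjusted p under 0.05, and 1 of 9, Egln1, had an unadjusted p under 0.05, beside 4716 of all 35981 probes. The methods' t-test called 0 of 9 after the same adjustment. Over all 35981 tested probes 0.0445% were called higher and 0.0195% lower, so few calls of any gene were made here. The groups of all 9 genes overlapped, while 5.51% of all tested probes did not overlap. Probes above background numbered 33606 to 34590 on the antimiR-34a arrays of this comparison and 36079 to 36778 on the scrambled antimiR arrays, and the part of this in any difference was not tested.

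Among the sensors, Egln1, the main prolyl hydroxylase that marks HIF alpha, had levels of -2.44, -2.28, -1.97 and -2.07 with scrambled antimiR and -2.26, -2.30, -2.72 and -2.52 with antimiR-34a. The difference was -0.26 (SE 0.11, limma adjusted p = 0.334), the largest in size of the 9. Egln3, a hydroxylase that is itself a HIF target, differed by -0.01 (95% interval -0.20 to 0.18). Both subunits were near 0 in difference. Hif1a, the first alpha subunit, differed by -0.04 (95% interval -0.20 to 0.13), and Epas1, the HIF2 alpha subunit that is abundant in lung endothelium, by 0.02 (95% interval -0.09 to 0.13).

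The remaining targets also stayed short of the threshold in that comparison. Slc2a1, the glucose transporter GLUT1, had levels of 1.39, 1.56, 1.59 and 1.27 with scrambled antimiR and 1.27, 1.56, 1.5 and 1.65 with antimiR-34a, a difference of 0.04 (95% interval -0.26 to 0.33). Pdk1, a kinase that holds pyruvate back from mitochondria, differed by -0.04 (95% interval -0.22 to 0.14). Bnip3, a mitochondrial protein that promotes mitophagy, differed by -0.15 (95% interval -0.32 to 0.02). The spread was widest for Adm, which encodes the vasodilator peptide adrenomedullin, with -0.19, -0.87, -0.05 and 0.60 under scrambled antimiR and -0.14, -0.09, -0.24 and -0.20 under antimiR-34a. Its difference was -0.04 (95% interval -0.57 to 0.49). Ndrg1, a stress-responsive gene, differed by -0.13 (95% interval -0.35 to 0.10). The 95% intervals of the 9 genes reached from -0.57 to 0.49. They are not set against the Ankrd37 difference, since Ankrd37 was chosen for it.

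**Figure D2:**
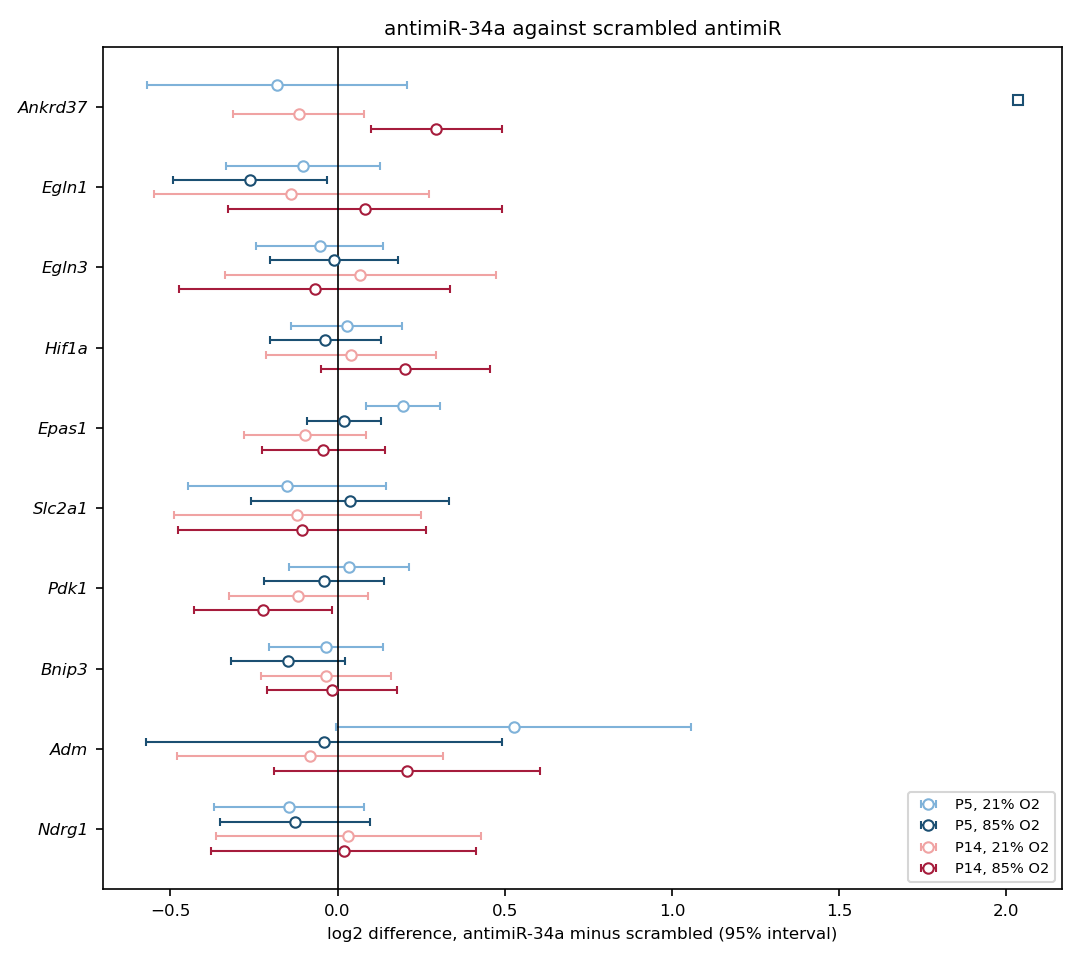
Log2 difference of antimiR-34a minus scrambled antimiR for the 10 genes at each age and oxygen level, with the 95% interval from limma. Open circles were not called, and the open square without an interval is the Ankrd37 value that was not tested. Ankrd37 at P5 in 85% O2, the value it was chosen for, is at 2.04, and every other point lies between -0.26 and 0.53.

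The other 3 antimiR-34a comparisons gave no call among the 10 genes. In 21% O2 at P5 limma called 0 of 10 genes, beside 0.12% of probes higher and 0.0167% lower, and the differences ran from -0.18 (Ankrd37) to 0.53 (Adm). Epas1 had an unadjusted p under 0.05 there, beside 6322 of all 35981 probes. Its difference was 0.20 (SE 0.05, limma adjusted p = 0.114) and its groups did not overlap. The share of all probes without overlap was not counted for that comparison. In 85% O2 at P14 limma called 0 of 10, beside 1.17% of probes higher and 1.49% lower. There 2 genes had an unadjusted p under 0.05 (Ankrd37 and Pdk1, the latter at -0.22), beside 6356 of all 38452 probes. In 21% O2 at P14 limma called 0 of 10, with 0 at an unadjusted p under 0.05, beside 0% of probes higher and 0% lower. The methods' t-test called 0 of 10 in each of these 3 comparisons.

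The antimiR-34a difference was also compared between oxygen levels. At P5 limma called 0 of 9 genes, beside 0.0111% of probes higher and 0.0445% lower. Of the 9, 1 (Epas1) had an unadjusted p under 0.05, beside 3893 of all 35981 probes. At P14 it called 0 of 10, beside 0.0416% higher and 0.0468% lower. Of the 10, 1 (Ankrd37) had an unadjusted p under 0.05, beside 5758 of all 38452 probes.

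Between oxygen levels some of the genes were called in each direction, at shares that can be read only against the many probes called overall. In 85% O2 against 21% O2 with scrambled antimiR at P5, 5 of 9 rose and 1 fell, beside 17.4% of all tested probes higher and 26.5% lower. With antimiR-34a at P5, 3 of 9 rose and 1 fell, beside 17.1% higher and 29.5% lower. At P14, Ankrd37 included, 4 of 10 rose and 2 fell with scrambled antimiR, beside 28.2% higher and 32.7% lower. With antimiR-34a at P14, 4 of 10 rose and 1 fell, beside 27.6% higher and 37.9% lower. The counts of falls at P14 include Epas1 on its brightest probe, whose other 2 probes were not called lower. With antimiR-34a at P5, and with either oligonucleotide at P14, the share of the genes called was close to or below that of all probes, so these counts are no result about the genes as a set. Markers of several cell types moved with oxygen level as well. With scrambled antimiR at P5, 7 of 8 heart muscle markers were called lower in 85% O2 (mean level 1.46 to 3.5 in 21% O2 and -0.13 to 1.71 in 85% O2). Of the 8 red blood cell markers 3 were called lower (2.43 to 2.95 against 1.26 to 2.46). Of the 8 type I pneumocyte markers 6 were called higher and 1 lower (3.27 to 3.51 against 3.75 to 3.81). At P14 with scrambled antimiR, 4 of 10 endothelial markers were called higher and 4 lower, and their mean level was 4.13 to 4.18 in 21% O2 and 3.83 to 3.95 in 85% O2. The part of these markers in the differences of the 10 genes was not tested.

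Slc2a1 was called in all 4 of these comparisons. With scrambled antimiR at P5 its levels were 0.91, 0.66, 0.53 and 0.89 in 21% O2 and 1.39, 1.56, 1.59 and 1.27 in 85% O2, and it rose by 0.71 (1.63-fold, SE 0.14, limma adjusted p = 0.000984). At P14 they were 0.55, 0.74, 0.62 and 0.73 in 21% O2 and 1.87, 1.85, 1.785 and 1.87 in 85% O2, a rise of 1.18 (2.27-fold, SE 0.17, limma adjusted p = 5.26e-05). With antimiR-34a it rose by 0.90 at P5 and by 1.20 at P14. The groups did not overlap in any of the 4 comparisons.

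Adm rose in 3 of the 4. With scrambled antimiR at P5 its levels were -1.04, -1.51, -1.37 and -1.16 in 21% O2, against -0.19, -0.87, -0.05 and 0.60 in 85% O2, a rise of 1.14 (SE 0.25, limma adjusted p = 0.00208). The methods' t-test did not call this rise (adjusted p = 0.0718). At P14 Adm rose by 0.93 with scrambled antimiR and by 1.22 with antimiR-34a. With antimiR-34a at P5 the difference was 0.58 (limma adjusted p = 0.0699).

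Bnip3 was called for oxygen at P5 with both oligonucleotides, Pdk1 at P5 with scrambled antimiR, and neither at P14. Bnip3 had levels of 2.92, 3.08, 2.70 and 2.90 in 21% O2 and 3.28, 3.44, 3.41 and 3.45 in 85% O2 with scrambled antimiR at P5, and it rose by 0.50 (SE 0.08, limma adjusted p = 0.000202). With antimiR-34a it rose by 0.38, a call lost with the mean of its probes (0.16, adjusted p = 0.141). At P14 its differences were -0.01 and 0.00, and the change of the oxygen effect from P5 to P14 was -0.51 (SE 0.12, limma adjusted p = 0.00129). A dimmer Bnip3 probe fell at P14, by 0.64 with scrambled antimiR and by 0.57 with antimiR-34a. Pdk1 differed by 0.18 with antimiR-34a at P5 (limma adjusted p = 0.0855) and rose by 0.26 with scrambled antimiR (SE 0.08, limma adjusted p = 0.0223). The call with scrambled antimiR was lost with the methods' t-test (adjusted p = 0.0664) and without replicate 2 or replicate 3 of the 21% O2 group or replicate 3 of the 85% O2 group (adjusted p = 0.0636 to 0.0710).

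The oxygen difference of the hydroxylase Egln3 was negative at P5 and positive at P14. At P5 with scrambled antimiR its levels were -0.82, -1.0, -0.79 and -0.75 in 21% O2 and -1.62, -1.52, -1.34 and -1.30 in 85% O2, and it fell by 0.60 (SE 0.09, limma adjusted p = 0.000104). With antimiR-34a at P5 it fell by 0.56. At P14 the levels were -3.27, -3.24, -3.22 and -3.20 in 21% O2 and -2.32, -2.57, -3.14 and -3.01 in 85% O2, all lower than at P5, and the gene rose by 0.48 (SE 0.19, limma adjusted p = 0.0412). With antimiR-34a at P14 the difference was 0.34 and was not called (limma adjusted p = 0.126). The rise with scrambled antimiR at P14 lost its call in 6 of 8 fits that left out 1 array (any of the 21% O2 arrays, or replicate 1 or 2 in 85% O2, adjusted p = 0.0649 to 0.135), without the filter on dim probes (0.0588) and with the methods' t-test (0.132). The change of the oxygen effect from P5 to P14, 1.08 (SE 0.21, limma adjusted p = 0.000268), was called with each array left out. A second Egln3 probe gave the same directions, with falls of 0.49 and 0.43 at P5 and rises of 0.53 and 0.61 at P14 for scrambled antimiR and antimiR-34a.

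Egln1 was not called at P5 and fell at P14 with scrambled antimiR. Its P14 levels were -2.35, -1.85, -2.20 and -2.23 in 21% O2 and -2.49, -2.37, -2.86 and -3.38 in 85% O2, a fall of 0.62 (SE 0.19, limma adjusted p = 0.0124). The fall was 0.20 after normexp background correction (adjusted p = 0.0865) and 0.49 after quantile normalization (0.0757), neither of them called. The call was also lost with the authors' values (adjusted p = 0.0743) and with the methods' t-test (0.105). With antimiR-34a at P14 the difference was -0.40 and was not called (limma adjusted p = 0.0817). The change of the oxygen effect from P5 to P14 was -0.81 (SE 0.22, limma adjusted p = 0.00520).

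Of the subunits, Hif1a rose at P5 with both oligonucleotides, by 0.42 and 0.35 (limma adjusted p = 0.000660 and 0.00198), from levels of 0.20, 0.36, 0.51 and 0.33 in 21% O2 to 0.60, 0.88, 0.83 and 0.76 in 85% O2 with scrambled antimiR. At P14 it rose by 0.42 with antimiR-34a (limma adjusted p = 0.00686), and with scrambled antimiR the difference was 0.25 (0.0789). A second, dim Hif1a probe was not called in any comparison, and the mean of both probes gave 0.13 at P5 with scrambled antimiR (adjusted p = 0.261) and 0.15 with antimiR-34a (0.171), so both P5 calls rest on the brightest probe. The methods' t-test did not call the P14 rise (adjusted p = 0.0759). Epas1 fell at P14 on its brightest probe, by 0.42 with scrambled antimiR (limma adjusted p = 0.000759) and by 0.36 with antimiR-34a (0.00186), the latter not called by the methods' t-test (adjusted p = 0.0609). A dimmer Epas1 probe (mm9, chr17:87230678-87230737) rose in the same comparisons by 0.32 and 0.33, and the mean of the 3 probes differed by 0.00 and 0.01, so no direction is given for the gene at P14.

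Ndrg1 was not called in any comparison, and its differences lay between -0.14 and 0.03. Its spread was wide in 85% O2 with antimiR-34a at P14 (0.84 to 1.93).

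**Figure D3:**
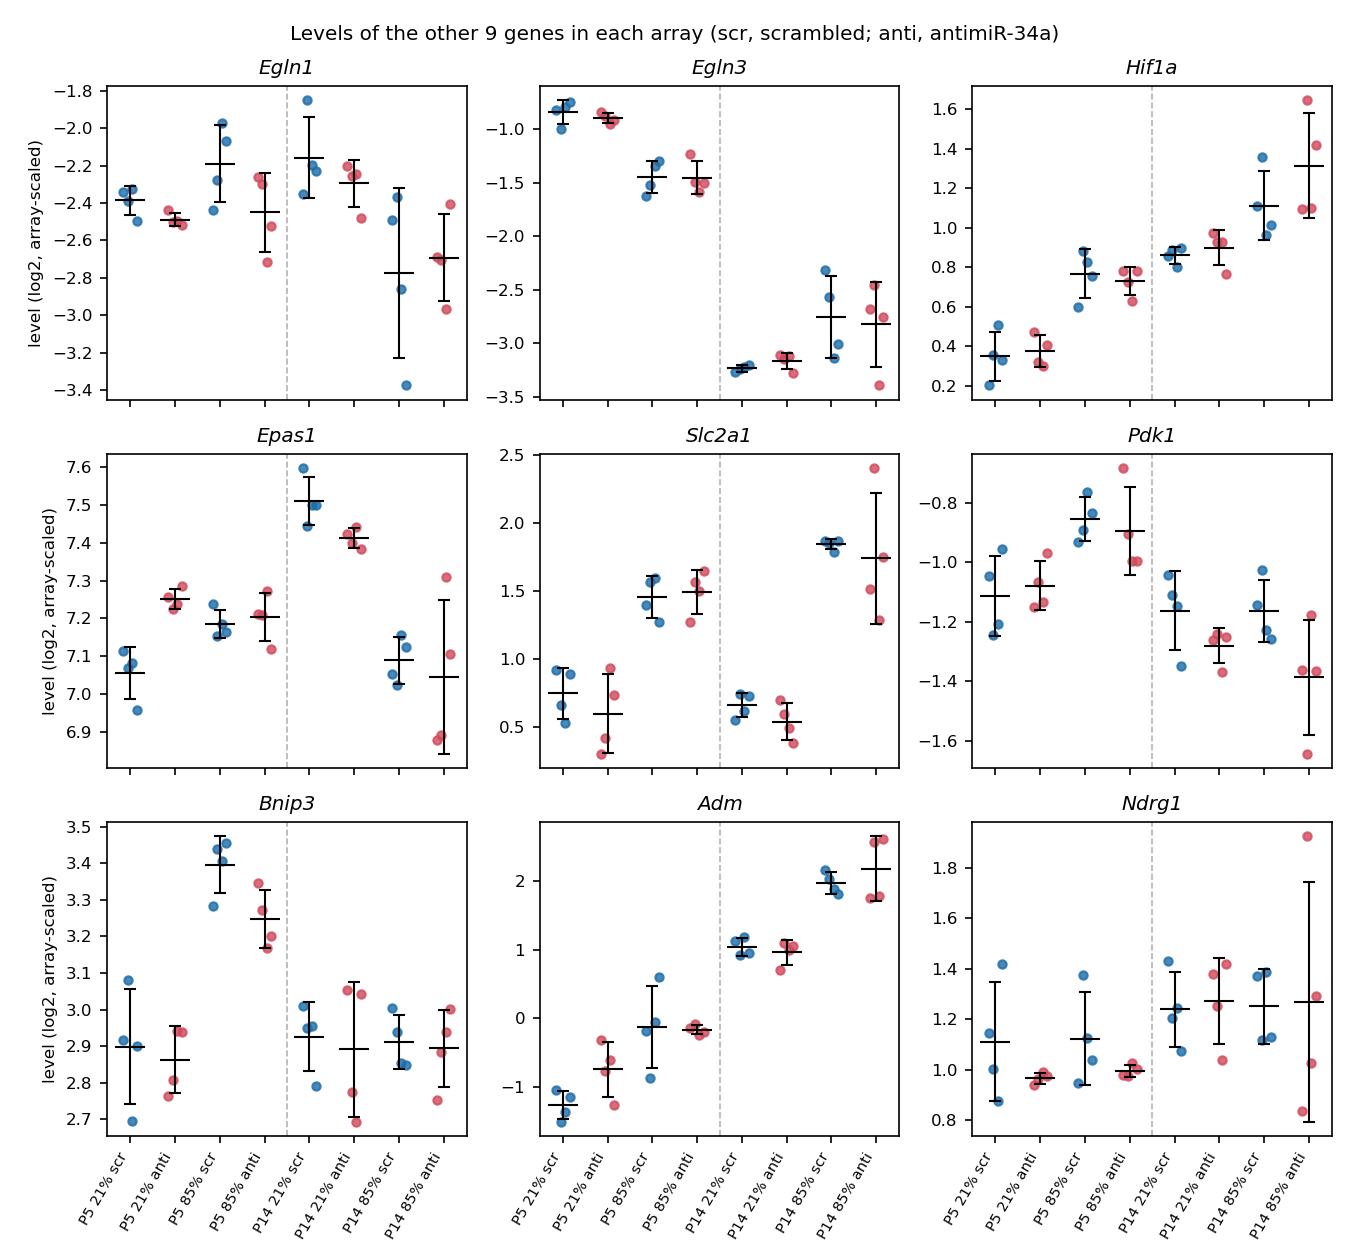
Level (log2, scaled to each array's 75th percentile) of the other 9 genes in each of the 32 arrays, blue for scrambled antimiR and red for antimiR-34a, with mean and SD of 4 arrays; the dashed line parts P5 from P14. Slc2a1 is higher in 85% O2 at both ages, Bnip3 at P5 alone, and Egln3 is lower in 85% O2 at P5 and higher at P14 with scrambled antimiR, a P14 call that several alternatives lose.

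**Figure D4:**
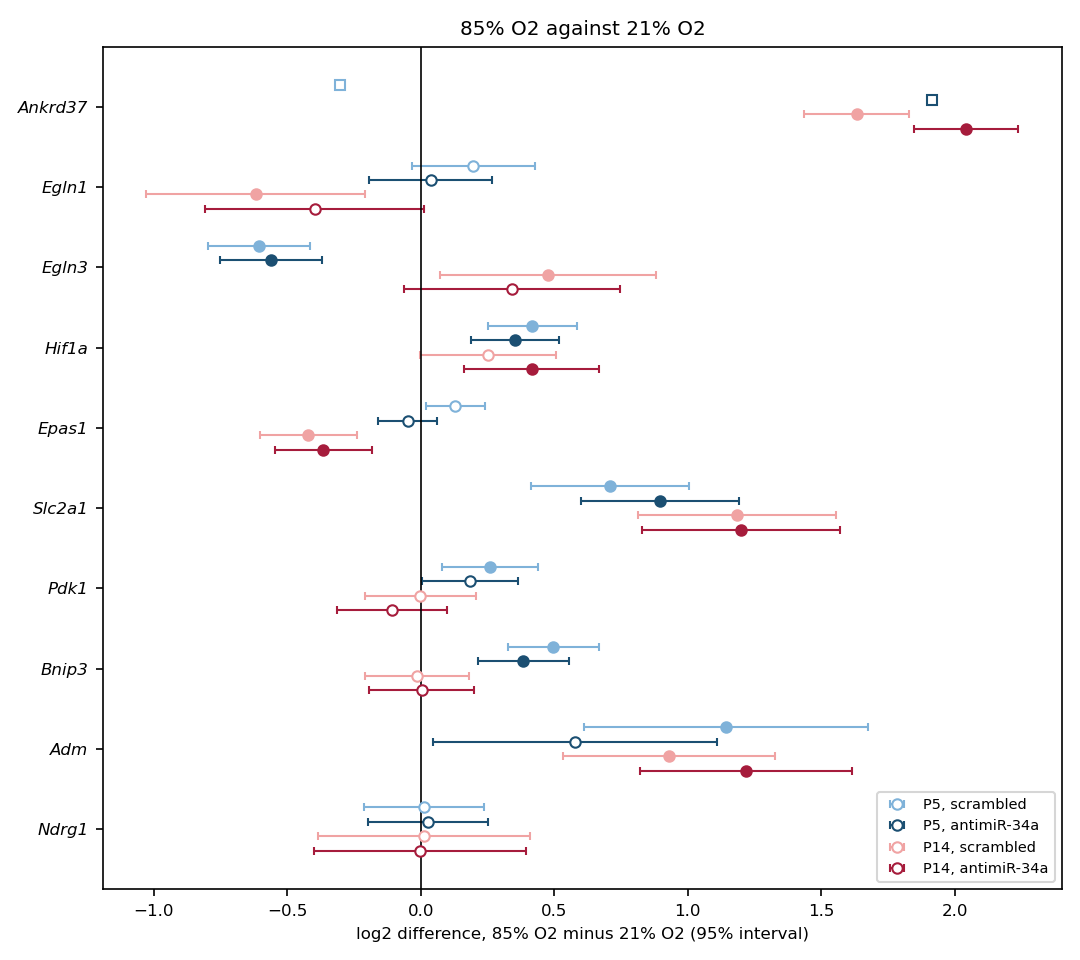
Log2 difference of 85% O2 minus 21% O2 for the 10 genes at each age and with each oligonucleotide, with the 95% interval from limma. Filled circles were called, open circles were not, and the open squares without an interval are Ankrd37 values at P5 that were not tested. Ankrd37 is at -0.30 with scrambled antimiR at P5 and between 1.63 and 2.04 in the other 3 comparisons.

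Between ages, with scrambled antimiR, the signed oxygen difference (85% minus 21% O2) was higher at P14 for 1 of 9 genes (Egln3) and lower for 3 (Bnip3, Egln1 and Epas1, the last with -0.55 on its brightest probe, 0.47 on the dimmer one and -0.10 for the mean of its probes, not called), beside 22.8% of all tested probes higher and 18% lower. A lower signed value is not a smaller effect, since Egln1 went from 0.20 at P5 to -0.62 at P14 and the brightest Epas1 probe from 0.13 to -0.42. Ages lay on different slides, so age and slide cannot be told apart in these values.

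The wider pathway was read from a list of 69 further genes, of which 67 were tested. They comprised 14 HIF regulators, 19 genes of glycolysis and 36 other HIF targets. For antimiR-34a in 85% O2 at P5, 1 of 67 was called, Edn1, which encodes the vasoconstrictor endothelin-1. It was higher by 0.88 (SE 0.14, limma adjusted p = 0.0454), and the call was lost with the replicate number as a block, with the methods' t-test, with the compared groups alone and in 6 of 8 fits that left out 1 array. The median difference over the 67 genes was 0.02, beside 0.01 over all tested probes. At P14 in 85% O2, 1 of 67 was called, Cxcr4, a chemokine receptor, higher by 0.71 (SE 0.12, limma adjusted p = 0.00828), and this call was lost with the compared groups alone and with the methods' t-test. In the same comparison 2 of 8 neutrophil markers, Camp and Ngp, were called lower, and the mean level of the 8 was -1.52 to -0.77 with antimiR-34a and -0.84 to 0.15 with scrambled antimiR. Their part in the Cxcr4 difference was not tested. In the 21% O2 comparisons limma called 0 of 67 at P5 (11 at an unadjusted p under 0.05, beside 6322 of all 35981 probes) and 0 at P14 (3, beside 4032 of all 38452 probes). In 85% O2 limma had 13 of 67 at an unadjusted p under 0.05 at P5 (beside 4716 of all 35981 probes) and 9 at P14 (beside 6356 of all 38452). The methods' t-test called 0 of 67 in each of these 4 comparisons, with 15 and 5 at an unadjusted p under 0.05 in 85% O2 and 14 and 8 in 21% O2, at P5 and P14.

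Many genes of the list were called between oxygen levels, which cannot be told apart from slides. At P5, 28 of 67 rose and 5 fell with scrambled antimiR, beside 17.4% of all tested probes higher and 26.5% lower. With antimiR-34a at P5, 34 rose and 7 fell, beside 17.1% higher and 29.5% lower. At P14, 36 rose and 14 fell with scrambled antimiR, beside 28.2% higher and 32.7% lower. With antimiR-34a at P14, 36 rose and 13 fell, beside 27.6% higher and 37.9% lower. Glycolysis genes were called higher in 9 and 12 of 19 at P5 and in 14 and 13 of 19 at P14, and Hk1, a hexokinase, was the 1 gene of that list called lower, with antimiR-34a at P5. Median differences of the glycolysis genes were 0.17 and 0.33 at P5 and 0.61 and 0.71 at P14, beside medians over all tested probes from -0.12 to -0.07.

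Among the genes with large changes in scrambled antimiR lungs, Bhlhe40, a clock-related repressor, rose by 1.44 at P5 and 2.34 at P14. Bhlhe41, its relative, rose by 1.02 at P5, and Stc2, a secreted glycoprotein, by 1.87 at P14. Cxcr4 led the falls, by 0.92 and 2.55. Car12, a carbonic anhydrase, fell by 0.74 at P5 and 1.73 at P14, Narf by 0.81 at P5, and Ppp1r3c, a glycogen-targeting subunit of protein phosphatase, by 1.5 at P14. With antimiR-34a, Bhlhe40 rose by 1.15 and 2.05, Edn1 by 1.45 at P5 and Stc2 by 2.09 at P14. Cxcr4 fell by 1.04 and 1.73, Car12 by 0.64 and 1.67, and Ccng2, a cyclin-like gene, by 0.50 and 0.93.

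**Figure D5:**
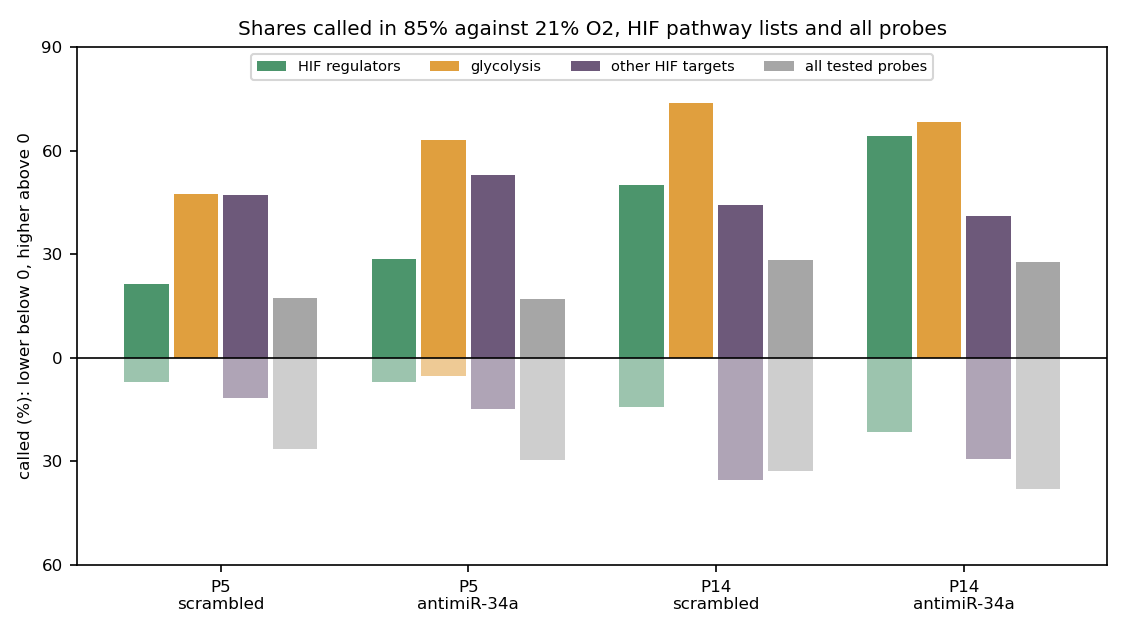
Percent of tested genes called higher (above 0) or lower (below 0) in 85% O2 against 21% O2 for the 3 pathway lists, and percent of all tested probes in grey, for each age and oligonucleotide. In scrambled antimiR lungs at P14, 14 of 19 glycolysis genes were called higher, beside 28.2% of all probes.

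Between ages, 24 of the 67 genes had a higher signed oxygen difference at P14 and 14 a lower one, beside 22.8% of all probes higher and 18% lower. Among the higher were Stc2 (1.25) and Bhlhe40 (0.89), and the most negative changes were those of Cxcr4 (-1.63), Ccng2 (-1.33) and Ppp1r3c (-1.30).

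Among 17878 genes, the 5 whose 8 group means followed those of Ankrd37 most closely were Fads6 (Pearson r 0.97), Ccdc157 (0.96), Spr (0.94), Nr2c2ap (0.93) and Aloxe3 (0.93). A high r does not mean a change of like size. Group means ran from -0.40 to 1.87 for Ankrd37 and from -1.62 to -1.09 for Ccdc157. The Fads6 probe was dim, with group means from -6.27 to -4.89. Spr, sepiapterin reductase, had group means of 2.14 with scrambled antimiR and 2.61 with antimiR-34a in 85% O2 at P5. These are descriptions over 8 groups that share slides, and the choice of Ankrd37 fixed the pattern. Of the 9 genes Slc2a1 was the most alike (0.79, rank 1103), followed by Hif1a (0.65), Adm (0.59) and Ndrg1 (0.18). Egln1 was the least alike (-0.78).

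The nearest named probe on the array belongs to Ufsp2 and lies 342 bases from the Ankrd37 probe (mm9, chr8:47082062-47082121). In RefSeq the 2 genes overlap at their ends. For antimiR-34a in 85% O2 at P5 the Ufsp2 probe differed by 0.06 (SE 0.06, limma adjusted p = 0.693). At P14 in 85% O2 it differed by 0.50 (limma adjusted p = 0.208), beside 0.29 for Ankrd37, neither of them called. With oxygen at P14 it differed by -0.07 with scrambled antimiR (0.776) and rose by 0.48 with antimiR-34a (0.0407). The nearest tested probe on the other side, 32346 bases away, belongs to Lrp2bp, and it differed by -0.11 for antimiR-34a in 85% O2 at P5 (limma adjusted p = 0.858).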

How the data were processed

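Whole-lung RNA in 32 samples was measured on one-colour Agilent arrays. Per the file headers, the deposited array files, written by Agilent Feature Extraction 10.7.3.1, hold the intensity of each spot, already corrected for background within each array and not normalized between arrays. The authors' series table holds log2 values of the same probes (correlation with the processed signal 0.997 to 1.00 per array) and was used as an alternative. Groups came from the labels. For RNA isolation, the labels and the methods name different kits.

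The log2 of the processed intensity minus the array's 75th percentile was used, with control and outlier spots left out and repeated spots averaged. A probe was tested where every one of the 4 arrays in some group had it well above background (35981 at P5, 38452 at P14, 39159 for both ages) with limma 3.58.1 in R 4.3.3, fitting the 16 arrays of an age together, or all 32 between ages, and p-values were adjusted by Benjamini and Hochberg's method across the tested probes, with calls at 0.05. The fit was tested on simulated data. Depth does not apply to arrays, and the 4 arrays per group limit the precision.

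The 10 genes, the pathway and marker lists and the alternatives were chosen with earlier results of these data known. Named were the 10 genes on their brightest probe, and up to 3 called pathway genes with the largest change per direction and comparison, the neighbours of Ankrd37 and the 5 genes most like it. One item that this rule names is not reported here. Marker scores are means of log2 levels over 8 or 10 genes. Probe positions are on mm9 as the array files give them, and sequences are from RefSeq on GRCm38.p6. Alternatives were normexp correction (offset 50), quantile normalization, the authors' values, no filter on dim probes, a filter on every array, the compared groups alone, a block for replicate number, the methods' t-test, the mean of a gene's probes, and each array left out in turn. Correlations of same-numbered arrays ranged from -0.35 to 0.50, so the numbers were not taken to pair the samples.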

Additional observations from a re-analysis of the deposited data

Results flagged for a closer look

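Of 80 groups of 4 levels (10 genes in 8 groups), 3 had 1 array far from the other 3 by Dixon's test, a rate below the 1 in 20 that chance gives. Ankrd37 was at 0.14 in replicate 4 of the P5 scrambled antimiR group in 85% O2, against -0.66 to -0.53 in the others. Pdk1 was at -1.37 in replicate 3 of the P14 antimiR-34a group in 21% O2, against -1.26 to -1.24. Slc2a1 was at 1.785 in replicate 3 of the P14 scrambled antimiR group in 85% O2, against 1.85 to 1.87.

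The oxygen effect with scrambled antimiR differed between P14 and P5 in limma's interaction test for 4 of the 9 genes, beside 22.8% of all probes higher and 18% lower, so the count is close to the share over all probes. The signed oxygen difference was higher at P14 for Egln3, by 1.08, and changed by -0.51 for Bnip3, -0.81 for Egln1 and -0.55 for Epas1 on its brightest probe. For Epas1 the call depends on the probe, with 0.47 on a dimmer probe and -0.10 (adjusted p = 0.208, not called) for the mean of its probes. For Egln3 the oxygen difference had opposite signs at the 2 ages.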

How the results depend on the processing

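Under no alternative was any of the 9 genes called between oligonucleotides in 85% O2 at P5. The counts of the 10 genes called changed by over 1.5 times in 2 places. With antimiR-34a, the count for 85% against 21% O2 fell from 5 to 3 at P14 under the methods' t-test and from 4 to 2 at P5 with the mean of all probes. Ankrd37 kept its direction wherever an alternative was run; the methods' t-test was not run for the differences between oxygen levels or ages, nor the compared groups alone for those between oxygen levels. Several small differences in 85% O2 at P5 changed sign: Epas1 (-0.0206 with normexp correction, -0.112 with quantile normalization, -0.117 with the authors' values) and Pdk1 (7e-04 with normexp). Epas1 at P14 was 0.004 and 0.0124 with the mean of its probes. Leaving out 1 array for antimiR-34a in 85% O2 at P5 kept the sign of Egln1 (-0.3439 to -0.1723), Ndrg1 (-0.1855 to -0.0426), Pdk1 (-0.1098 to -0.006) and Bnip3 (-0.1855 to -0.1217). It gave ranges of -0.024 to 0.113 for Slc2a1, -0.0839 to 0.0382 for Egln3, -0.0938 to 0.002 for Hif1a, -0.0046 to 0.0461 for Epas1 and -0.287 to 0.202 for Adm. The cause was not tested.

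The pathway list count for antimiR-34a in 85% O2 at P5 was 1, and became 4 with no filter on dim probes and 0 with the compared groups alone, the methods' t-test or the replicate block, and 0 to 1 with 1 array left out. At P14 it was 1, and became 0 with the compared groups alone and the methods' t-test and 1 to 4 with 1 array left out (4 without antimiR-34a replicate 2). For the difference between oxygen levels at P5 it was 0, and became 1 with normexp correction and with the filter on every array, and 0 to 1 with 1 array left out. At P14 the range was 0 to 2. The replicate block changed no count of the 10 genes called. A slide block leaves the antimiR-34a estimates as they are and cannot be fitted for oxygen, so it was not run. All 16 probes were above background on every array, and the 4 arrays per group limit the precision.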

Other observations

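Other genes of the HIF pathway list also moved with oxygen. Vhl, which encodes the von Hippel-Lindau protein that recognises hydroxylated HIF alpha, fell in 85% O2 in all 4 comparisons, by 0.29 and 0.24 at P5 and by 0.54 and 0.23 at P14 for scrambled antimiR and antimiR-34a. Egln2, another prolyl hydroxylase, rose in all 4, by 0.46 and 0.36 at P5 and by 0.18 and 0.26 at P14. Hk2, an inducible hexokinase, rose by 0.83 and 0.70 at P5 and by 1.61 and 1.49 at P14. Vegfa, a target that drives vessel growth, rose at P5 by 0.47 and 0.36 and was not called at P14, with differences of 0.01 and 0.07. Car9, a carbonic anhydrase used as a marker of hypoxia, was not called in any of the 4, with differences of 0.03 to 0.24. These 5 genes were singled out after their values were seen, and limma's adjusted p for the calls lay between 3.18e-05 and 0.0215.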
